A study of Homo sapiens with 24 samples.

Results

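BRCA1 and BARD1 are 2 of the 605 genes named in the deposited files and are represented by 3 probes, chosen as every probe to which the authors' 6 deposited lists of changed genes give the symbol BRCA1 or BARD1. The array table holds 47223 probes, of which 24750 were tested, and the lists name 685 of the tested probes. Probe ILMN_1738027 had the higher mean signal of the BRCA1 probes and stands for the gene, ILMN_2311089 is called the second BRCA1 probe, and ILMN_2074258 is the BARD1 probe. In the authors' lists both BRCA1 probes carry the description of a BRCA1 transcript variant, and the sources used here do not say which other BRCA1 transcripts each probe reads.

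RNA was profiled on 24 Illumina bead arrays from 2 established human pancreatic ductal adenocarcinoma lines, AsPC-1, grown in RPMI 1640, and COLO-357, grown in DMEM. Cultures received PD-0332991 (palbociclib) at 5 µM or vehicle, and RNA was taken after 24 h or 72 h. The 8 groups were AsPC-1 with PD-0332991 at 24 h and its vehicle, AsPC-1 with PD-0332991 at 72 h and its vehicle, and the same 4 in COLO-357, with 3 biological replicates each per the design text. Each line had its own medium, so line and medium cannot be told apart, and 1 dose was used. Markers of pancreatic duct epithelium and of acinar, endocrine, fibroblast, endothelial and immune cells had 0 named probes, so the labelled cell type could not be checked.

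BRCA1 and BARD1 proteins join through their RING domains into a heterodimer, and each stabilises the other. The dimer is a ubiquitin ligase that marks histone H2A, and with PALB2 and BRCA2 it directs double-strand breaks to homologous recombination and protects stalled replication forks. Recombination with the sister chromatid needs a replicated genome, and both genes are expressed mostly in S and G2 phase. PD-0332991 inhibits the kinases CDK4 and CDK6, which phosphorylate RB; unphosphorylated RB binds E2F transcription factors and keeps S phase genes off. An array measures RNA per sample, so fewer cells in S phase and less RNA per cell cannot be told apart.

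Because E2F factors act at promoters, the promoter windows of both genes were read from RefSeq (GRCh38.p14), 250 bases before to 50 bases after the annotated start, and are shown 5′ to 3′ on the gene's strand. RefSeq gives 1 window for BARD1, at chr2:214809634-214809933 on the minus strand, and 2 for BRCA1, of which the window at chr17:43125315-43125614 on the minus strand is shown. Capitals mark GCGGGAA, the reverse complement of TTCCCGC, and in BRCA1 also CCAAT.
BARD1: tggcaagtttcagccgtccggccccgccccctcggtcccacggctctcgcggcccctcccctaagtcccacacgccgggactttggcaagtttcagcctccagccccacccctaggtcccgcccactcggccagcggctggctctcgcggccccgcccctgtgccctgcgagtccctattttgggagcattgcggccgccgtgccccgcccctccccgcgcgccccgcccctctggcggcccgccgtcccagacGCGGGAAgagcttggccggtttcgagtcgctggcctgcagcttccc
BRCA1: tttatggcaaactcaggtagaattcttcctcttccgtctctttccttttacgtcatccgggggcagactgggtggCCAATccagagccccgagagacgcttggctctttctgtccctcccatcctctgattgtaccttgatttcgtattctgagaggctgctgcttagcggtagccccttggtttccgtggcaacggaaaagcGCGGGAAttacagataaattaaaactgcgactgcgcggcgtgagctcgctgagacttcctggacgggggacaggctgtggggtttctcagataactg

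Exact matches were searched on both strands for the E2F-type letters TTTCCCGC, TTTGGCGC and TTTCGCGC, the CHR-type letters TTTGAA and TTCGAA, and CCAAT. None of the 3 windows held an E2F-type or CHR-type match. The shown BRCA1 window held CCAAT 175 bases upstream of the start, a run of letters found in 34.6% of 35116 promoter windows. TTTCCCGC is found in 1.63% of those windows, TTTGGCGC in 0.652%, TTTCGCGC in 0.515%, TTTGAA in 15.2% and TTCGAA in 1.45%. The shorter TTCCCGC, which lies inside TTTCCCGC and was chosen after the windows had been read, is found in 6.55% of windows. Its reverse complement stood 5 bases downstream of the BARD1 start and 47 bases upstream of the BRCA1 start of the shown window. The BRCA1 window that is not shown held neither TTCCCGC nor CCAAT on either strand. These matches describe the letters in the windows only.

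All 3 probes were detected on 24 of 24 arrays. Over all arrays the mean log2 level was 8.27 for BRCA1, 7.69 for the second BRCA1 probe and 8.12 for BARD1, brighter than 72.3%, 65.8% and 70.6% of tested probes. Levels are normalised log2 intensities, and differences between groups are log2 differences with a standard error (SE) from a fit to all 24 arrays. Across the 24 arrays 16440 to 20697 probes were detected, replicates of a group correlated at 0.9704 to 0.9935, and no 2 arrays held identical values. The threshold for a call was an adjusted p below 0.05, with adjustment over all tested probes.

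BRCA1 and BARD1 were lower with PD-0332991 than with vehicle at 24 h in both lines, and the log2 differences at 72 h were smaller in size. The 24 h values of BARD1 in both lines and of both BRCA1 probes in COLO-357 had named those probes, so a change with time was tested for the BRCA1 probes in AsPC-1 alone, where it was not called. In all 12 comparisons of drug with vehicle (3 probes, 2 lines, 2 times) the drug mean was lower and the 3 drug arrays lay below the 3 vehicle arrays. The groups lay apart in that way for 10.6% of all tested probes in AsPC-1 and 15.2% in COLO-357 at 24 h, and for 13.1% and 15% at 72 h. In 4 of the 12 that direction was fixed by the choice of probes: BARD1 was named through the authors' lists of both lines at 24 h, and both BRCA1 probes only through the COLO-357 list at 24 h. Of the other 8 comparisons 4 were called, and of the 6 at 72 h 2 were called, or 3 with the replicate number as a block. Of all tested probes 5.79% were called lower in AsPC-1 at 24 h, 2.79% in AsPC-1 at 72 h and 5.54% in COLO-357 at 72 h. None of the 3 probes is in the authors' lists at 72 h or in their 2 lists of a cyclin knockdown.

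**Figure D1:**
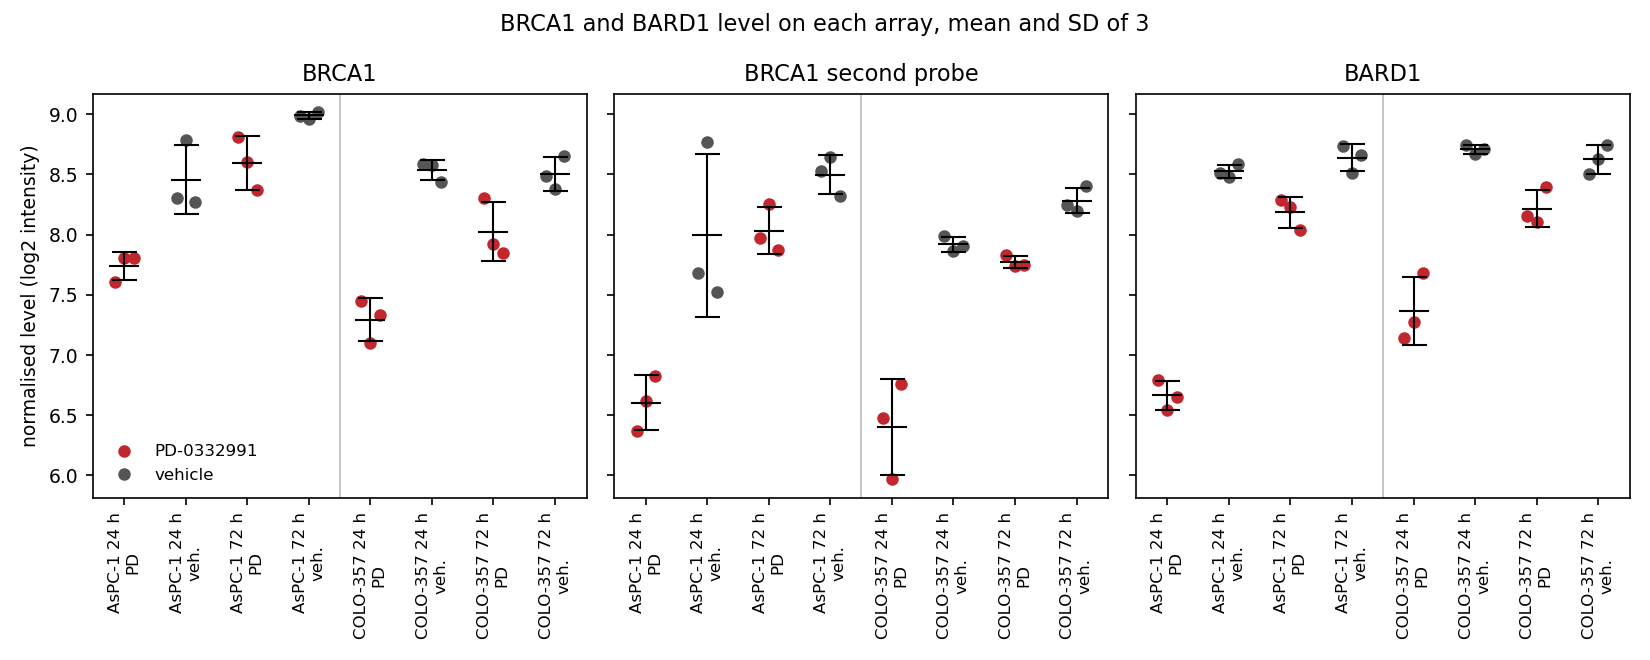
Normalised log2 intensity (vertical axis) of BRCA1, the second BRCA1 probe and BARD1 on each of 24 arrays, by line, time and treatment; points are arrays, bars the mean and SD of 3. In each line and time the 3 PD-0332991 arrays lie below the 3 vehicle arrays, with the widest gap at 24 h.

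In AsPC-1 at 24 h, BRCA1 fell to levels of 7.61, 7.81 and 7.81 on the drug arrays, against 8.31, 8.78 and 8.27 on the vehicle arrays. The groups did not overlap, and one vehicle array, replicate 2, stood 0.50 above the mean of the other 2. The log2 difference was -0.71 ± 0.15 (SE, n = 3 each, adjusted p = 0.0033 in limma), a level 60.9% of vehicle. Fitted on these 6 arrays alone the adjusted p was 0.10, and without vehicle replicate 2 the difference was -0.55 and still called. Over 9 other settings the adjusted p for BRCA1 ran from 0.0015 to that 0.10. The probe was not in the authors' list of this comparison.

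The second BRCA1 probe had levels of 6.37, 6.62 and 6.83 on the AsPC-1 drug arrays at 24 h, against 7.68, 8.77 and 7.53 on the vehicle arrays. It fell by 1.39 ± 0.23 (SE, n = 3 each, adjusted p = 0.00027 in limma). Vehicle replicate 2 was again high, by 1.17 over the mean of the other 2, and without it the difference was -0.9996 and still called. On the 6 arrays alone its adjusted p was 0.088. In BARD1 the same array lay 0.07 below the mean of the other 2.

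BARD1, the RING partner of BRCA1, had levels of 6.79, 6.55 and 6.65 on the AsPC-1 drug arrays at 24 h, against 8.51, 8.48 and 8.59 on the vehicle arrays. The 3 arrays of each group lay close together and the groups did not overlap. The difference was -1.86 ± 0.13 (SE, n = 3 each), a level 27.5% of vehicle. In the authors' deposited table BARD1 has 149.62 with drug against 330.25 with vehicle, 45.2% of vehicle. On the authors' scaled intensities, to which no background correction was applied here, the fitted difference was -1.14. This comparison named the probe, so its size is given as a description with no test.

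In COLO-357 at 24 h all 3 probes were named through this very comparison, and their values are described without a test. BRCA1 had levels of 7.45, 7.10 and 7.33 on the drug arrays, against 8.59, 8.58 and 8.44 on the vehicle arrays, a difference of -1.24 ± 0.15 (SE, n = 3 each). The second BRCA1 probe had 6.48, 5.97 and 6.76 with drug, against 7.99, 7.86 and 7.91 with vehicle, a difference of -1.52 ± 0.23. BARD1 had 7.14, 7.28 and 7.68 with drug, against 8.75, 8.67 and 8.71 with vehicle, a difference of -1.34 ± 0.13. The drug arrays of each probe spread more widely than the vehicle arrays, and for each probe the highest drug array lay below the lowest vehicle array. In the authors' deposited table the 3 probes stand at 47.4%, 44.4% and 44.2% of vehicle, and 5.78% of all tested probes were called lower here.

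At 72 h none of the values had been used to name a probe. In AsPC-1, BRCA1 had levels of 8.81, 8.60 and 8.37 with drug, against 8.99, 8.96 and 9.02 with vehicle. The drug arrays were spread over a range while the vehicle arrays lay close together, and the highest drug array lay just below them. The difference was -0.40 ± 0.15 (SE, n = 3 each, 95% interval -0.72 to -0.08) and was not called (limma adjusted p = 0.15). Levels of the second BRCA1 probe were 7.97, 8.25 and 7.88 with drug, against 8.52, 8.64 and 8.32 with vehicle, a difference of -0.47 ± 0.23 that was not called either (adjusted p = 0.29).

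BARD1 in AsPC-1 at 72 h had levels of 8.29, 8.23 and 8.04 with drug, against 8.74, 8.52 and 8.66 with vehicle. It fell by 0.45 ± 0.13 (SE, n = 3 each, limma adjusted p = 0.046), to 73.0% of vehicle. The call did not hold without any single one of the 6 arrays, where the adjusted p was 0.064 to 0.20, nor on the authors' scaled intensities (adjusted p = 0.11, the highest of 9 other settings, with 0.019 the lowest). The background is that 2.79% of tested probes were called lower, and 6.30% of tested probes had a lower log2 difference than BARD1.

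In COLO-357 at 72 h, BRCA1 had levels of 8.30, 7.92 and 7.85 with drug, against 8.48, 8.38 and 8.66 with vehicle. It fell by 0.48 ± 0.15 (SE, n = 3 each, limma adjusted p = 0.046), to 71.6% of vehicle. Without any single array other than drug replicate 1 the call was lost, with adjusted p of 0.054 to 0.20, and over 9 other settings it ran from 0.0013 to 0.090. Here 5.54% of tested probes were called lower and 6.71% had a lower log2 difference than BRCA1. For the second BRCA1 probe the levels were 7.83, 7.74 and 7.75 with drug, against 8.25, 8.20 and 8.40 with vehicle, a difference of -0.51 ± 0.23 that was not called (adjusted p = 0.18). It was called with each array scaled to its 75th percentile (adjusted p = 0.024), on the authors' scaled intensities (0.0083) and with only the groups compared (0.037), and over 9 settings the adjusted p ran from 0.0083 to 0.26.

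BARD1 in COLO-357 at 72 h had levels of 8.15, 8.10 and 8.39 with drug, against 8.50, 8.62 and 8.75 with vehicle, and the groups again did not overlap. The difference was -0.41 ± 0.13 (SE, n = 3 each), with a limma adjusted p of 0.051, just outside the threshold. With the replicate number as a block it was called (adjusted p = 0.025), and over 9 settings, that one included, the adjusted p ran from 0.00042 to 0.11. On the authors' scaled intensities the difference was -0.60 (adjusted p = 0.00042), where most called probes of this comparison were lower: 5139 lower and 734 higher, against 1371 lower and 1420 higher in the normalised values. Over the 6 comparisons at 72 h the adjusted p ran from 0.046 to 0.29, and 4 of the 6 missed the threshold.

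**Figure D2:**
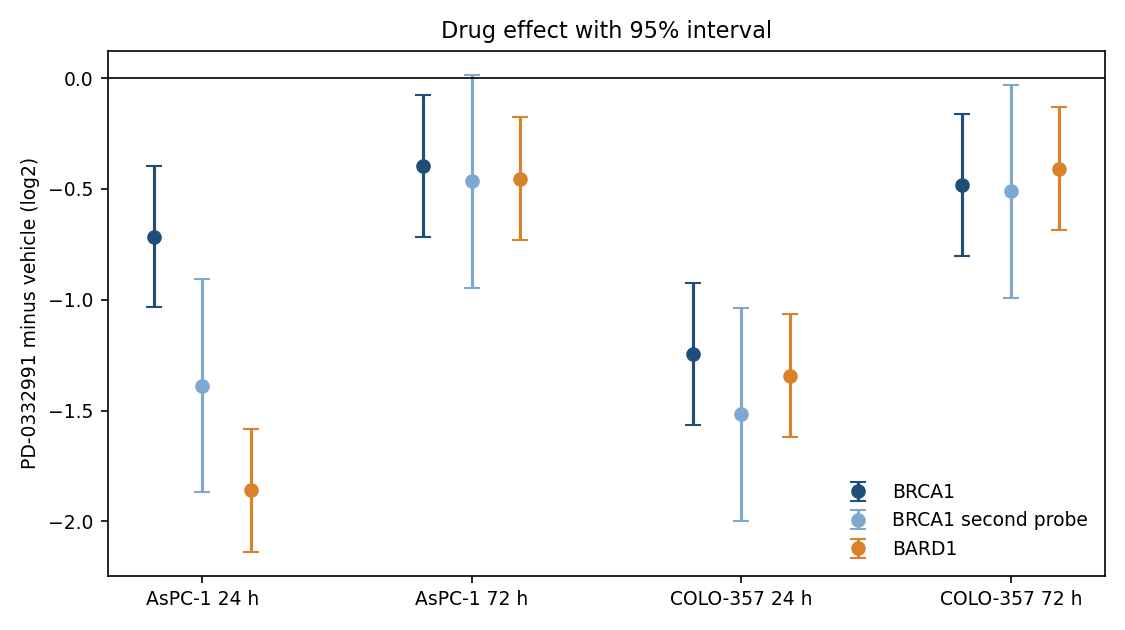
Log2 difference of PD-0332991 minus vehicle (vertical axis) for the 3 probes in each line and time, with 95% intervals from the fit to 24 arrays. At 24 h the values run from -0.71 to -1.86; at 72 h all 6 lie between -0.40 and -0.51.

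The difference between the 2 drug effects of a line was tested where the 24 h effect had not named the probe, which left the BRCA1 probes in AsPC-1. For BRCA1 the effect at 72 h minus that at 24 h was 0.32 ± 0.22 (SE, limma adjusted p = 0.53), and for the second BRCA1 probe it was 0.92 ± 0.33 (adjusted p = 0.14), neither called, where 3.08% of tested probes were called in either direction. With each of 12 arrays left out, the second probe's difference was lowest, 0.53, without vehicle replicate 2 at 24 h, the high array. It was highest, 1.16, without vehicle replicate 3 at 24 h, the only 1 of the 12 that was called (limma adjusted p = 0.048). Over 9 other settings its adjusted p ran from 0.061 to 0.42. The other differences contain a 24 h effect selected for its size and are given with no test. They were 1.41 ± 0.19 in AsPC-1 and 0.93 ± 0.19 in COLO-357 for BARD1, and in COLO-357 0.76 ± 0.22 for BRCA1 and 1.01 ± 0.33 for the second BRCA1 probe.

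Levels were also compared between the times within drug-treated and within vehicle cultures. In drug-treated AsPC-1, BRCA1 was higher at 72 h than at 24 h by 0.85 ± 0.15 (SE, limma adjusted p = 0.0011) and the second BRCA1 probe by 1.43 ± 0.23 (adjusted p = 0.00033), where 4.84% of tested probes were called. The 24 h arrays had named BARD1 in both lines and the BRCA1 probes in COLO-357, so those differences are described with no test. In drug-treated AsPC-1 BARD1 at 72 h minus 24 h was 1.52 ± 0.13. In drug-treated COLO-357 the difference was 0.85 ± 0.13 for BARD1, 0.73 ± 0.15 for BRCA1 and 1.37 ± 0.23 for the second BRCA1 probe. On the authors' scaled intensities that of BRCA1 was 0.36, and there the median of all tested probes was -0.11.

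In AsPC-1 vehicle cultures BRCA1 at 72 h differed from 24 h by 0.54 ± 0.15 (SE), where the 72 h and 24 h arrays did not overlap but the call was missed (limma adjusted p = 0.072), with 2.16% of tested probes called. Without vehicle replicate 2 at 24 h, the high array, the difference of BRCA1 was 0.70 and was called (adjusted p = 0.018). The second BRCA1 probe differed by 0.50 ± 0.23 (adjusted p = 0.27), and without the same array by 0.89, which was called (adjusted p = 0.012). The other vehicle differences share arrays with the comparisons that named the probes and have no test. BARD1 at 72 h minus 24 h was 0.12 ± 0.13 in AsPC-1 vehicle cultures and -0.08 ± 0.13 in COLO-357 vehicle cultures. In COLO-357 vehicle cultures BRCA1 differed by -0.03 ± 0.15 and the second BRCA1 probe by 0.36 ± 0.23.

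Within AsPC-1 the order of BRCA1 means was vehicle at 72 h, drug at 72 h, vehicle at 24 h and drug at 24 h. Drug at 72 h and vehicle at 24 h overlapped in range, with means of 8.59 ± 0.22 and 8.45 ± 0.29 (SD, n = 3 each). Within COLO-357 drug at 72 h, 8.02 ± 0.25, remained below both vehicle groups, 8.54 ± 0.08 at 24 h and 8.51 ± 0.14 at 72 h, and the vehicle groups overlapped. For BARD1 the mean with drug at 72 h was 8.19 ± 0.13 in AsPC-1 and 8.22 ± 0.16 in COLO-357, between the drug and vehicle means at 24 h of its line: 6.66 ± 0.12 and 8.52 ± 0.06 in AsPC-1, 7.37 ± 0.28 and 8.71 ± 0.04 in COLO-357.

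The drug effects of the 2 lines were compared at each time. At 24 h COLO-357 minus AsPC-1 was -0.53 ± 0.22 for BRCA1, -0.13 ± 0.33 for the second BRCA1 probe and 0.52 ± 0.19 for BARD1 (SE). Each contains an effect that named the probe and has no test, and the BARD1 value was -0.03 on the authors' scaled intensities. At 72 h the differences were -0.09 ± 0.22 for BRCA1 (95% interval -0.54 to 0.37), -0.05 ± 0.33 for the second BRCA1 probe and 0.04 ± 0.19 for BARD1 (95% interval -0.35 to 0.44), with limma adjusted p of 0.90, 0.97 and 0.94 against a background of 3.38% called. The intervals leave room for differences as large as the 72 h effects themselves.

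Between vehicle cultures, COLO-357 minus AsPC-1 at 24 h was 0.08 ± 0.15 for BRCA1 and 0.18 ± 0.13 for BARD1, on arrays used to name the probes. At 72 h it was -0.48 ± 0.15 for BRCA1 (limma adjusted p = 0.011) and -0.01 ± 0.13 for BARD1 (adjusted p = 0.94), where 55.5% of tested probes were called. These differences depend on the scaling: on the authors' scaled intensities they were 0.67 and 0.78 at 24 h and 0.06 and 0.45 at 72 h, so no order of the lines is given for either gene.

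BRCA1 and BARD1 were then compared on the same arrays, by the drug minus vehicle difference of the per-array value BARD1 minus BRCA1. In AsPC-1 at 24 h the difference was -1.15 (n = 3 each), and with the second BRCA1 probe it was -0.47. BARD1 was in the authors' list of this comparison and BRCA1 was not, so it has no test, and the part of the naming in it was not tested. In COLO-357 at 24 h, where all 3 probes were named, it was -0.10. At 72 h it was -0.06 in AsPC-1 (exact permutation p = 0.5, two-sided) and 0.07 in COLO-357 (exact permutation p = 0.8), and 3 arrays against 3 cannot give a p below 0.1. These permutations did not use the replicate numbers. The mean over both lines and times was -0.31, which contains the AsPC-1 24 h value, and it was -0.05 with the second BRCA1 probe and -0.18 on the authors' scaled intensities.

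**Figure D3:**
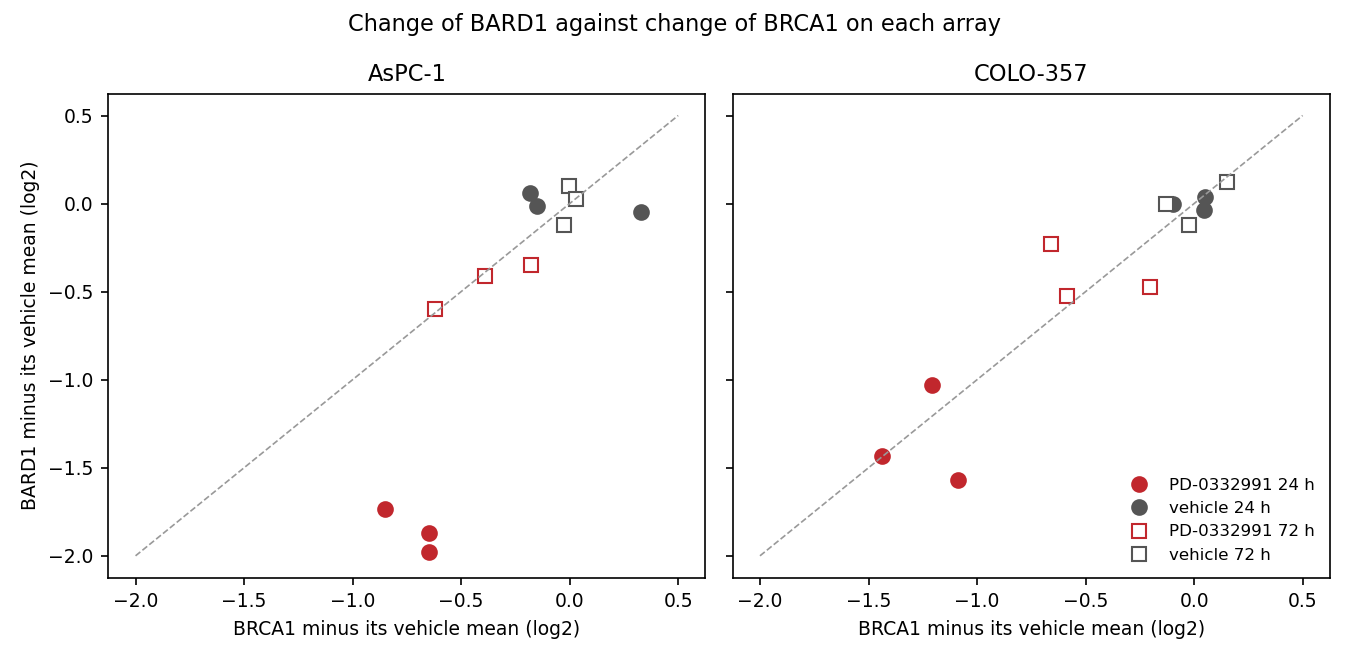
BARD1 (vertical axis) against BRCA1 (horizontal axis) on each array, both as log2 level minus the mean of the vehicle arrays of that line and time; filled circles are 24 h, open squares 72 h, and the dashed line marks equal change. The 3 AsPC-1 drug arrays at 24 h lie below the line, where BARD1 minus BRCA1 changed by -1.15, and the other drug arrays lie around it.

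Other repair genes were taken from 4 lists, and only those that the authors' lists name could be found. From here on, a listed gene that fell was called lower, and one that rose was called higher. Together 18 genes were named: 4 of 44 of the BRCA1 complexes and homologous recombination, 4 of 19 of the Fanconi anaemia pathway, 4 of 25 of the replication checkpoint and damage signalling, and 6 of 20 of mismatch and base excision repair. Named genes were selected by the authors for a change, so the counts describe selected genes. The authors' COLO-357 list at 72 h held 3 of the 18: FANCG, RPA3 and POLE2. They are among those that fell in that comparison. At 24 h with drug 17 of 18 fell in AsPC-1 (median -1.49) and 18 of 18 in COLO-357 (median -1.31). Over all tested probes the medians were 0.01 in each line, and 5.79% and 5.78% were called lower. The authors' list of the same comparison held 8 of the 18 in AsPC-1 and 16 in COLO-357, and for those the naming had fixed the fall. The 24 h counts therefore cannot be weighed against the shares over all tested probes. At 72 h 2 of 18 fell in AsPC-1 (median -0.31) and 5 of 18 in COLO-357 (median -0.43), beside medians of 0.00 and -0.01 and shares of 2.79% and 5.54% called lower over all tested probes. None of the 18 was called higher in any of the 4 comparisons. At 72 h the highest log2 difference among them was -0.05 in AsPC-1 and 0.14, for FEN1, in COLO-357. Genes without a call in AsPC-1 at 72 h thus also had negative differences.

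Among genes absent from the authors' list of the same comparison, 9 of 10 fell in AsPC-1 at 24 h, 2 of 2 in COLO-357 at 24 h, 2 of 18 in AsPC-1 at 72 h and 2 of 15 in COLO-357 at 72 h. They had still been selected in another comparison. Without AsPC-1 vehicle replicate 2 at 24 h, 17 of 18 fell in AsPC-1 at 24 h. The COLO-357 count at 72 h depended on the scaling. With each array scaled to its 75th percentile 14 of 18 fell, where 3344 tested probes were called lower and 1688 higher. On the authors' scaled intensities 16 of 18 fell, where 5139 tested probes were called lower and 734 higher. In the main fit 5 of 18 fell, where 1371 of 24750 tested probes were called lower and 1420 higher. More of all tested probes were thus called lower in those settings too.

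Homologous recombination genes named beside BRCA1 and BARD1 include EXO1, a nuclease that resects break ends, RAD54L, a DNA translocase of recombination, and the helicase RECQL4. All 4 genes of the list had negative differences at 24 h in both lines, and each was in the authors' COLO-357 list at 24 h. EXO1 changed by -2.36 ± 0.21 in AsPC-1 and -1.55 ± 0.21 in COLO-357. RAD54L and RECQL4 were not in the AsPC-1 list and changed there by -1.31 ± 0.14 (limma adjusted p = 9.1e-07) and -0.89 ± 0.20 (adjusted p = 0.0038). At 72 h 0 of the 4 were called: the values ran from -0.07 for EXO1 to -0.14 for RECQL4 in AsPC-1, and were -0.52 for EXO1, -0.36 for RAD54L and -0.49 for RECQL4 in COLO-357. In AsPC-1 at 72 h BARD1 and BRCA1, at -0.45 and -0.40, had lower values than all 4.

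The Fanconi anaemia pathway repairs DNA interstrand crosslinks and hands breaks to recombination. Its named genes were FANCI, which is ubiquitinated with FANCD2, the E2 enzyme UBE2T that serves that step, the deubiquitinase subunit USP1 that reverses it, and FANCG of the core complex. All 4 had negative differences at 24 h in both lines, and each had been named through a 24 h list. UBE2T, in the lists of both lines at 24 h, stood at -1.64 ± 0.13 in AsPC-1 and -1.42 ± 0.13 in COLO-357. At 72 h 0 of 4 were called in AsPC-1, and UBE2T fell in COLO-357 (-0.48 ± 0.13, limma adjusted p = 0.018). FANCG, which is in the authors' list of that COLO-357 comparison, had a difference of -0.83 ± 0.16 there, given with no test. FANCI stood at -0.07 ± 0.19 in AsPC-1 and -0.09 ± 0.19 in COLO-357 at 72 h, both not called.

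Of the checkpoint genes, the kinases CHEK1 and WEE1 hold back CDK activity when replication is disturbed, and H2AFX is the histone phosphorylated at breaks. All of these fell in AsPC-1 at 24 h. In COLO-357 at 24 h, where the authors' list named them, their differences were also negative, given with no test. RPA3, a subunit of the protein that coats single-stranded DNA, had a difference of -0.35 ± 0.16 in AsPC-1 at 24 h (limma adjusted p = 0.17) and fell in COLO-357 (-0.57 ± 0.16, adjusted p = 0.020). At 72 h WEE1 fell in AsPC-1 (-0.62 ± 0.14, adjusted p = 0.0077), and CHEK1 fell in COLO-357 (-0.67 ± 0.13, adjusted p = 0.0016). RPA3 was named through the authors' list of that COLO-357 comparison and had a difference of -1.06 ± 0.16 there, given with no test. Mismatch and base excision repair was represented by genes that also act in replication, the clamp PCNA, the flap nuclease FEN1, the ligase LIG1, the polymerase subunit POLE2, the dUTPase DUT and the glycosylase NEIL3. All 6 had negative differences at 24 h in both lines, and each was in the authors' COLO-357 list at 24 h. At 72 h DUT fell in AsPC-1 (-0.57 ± 0.14, adjusted p = 0.013), and POLE2, listed by the authors for COLO-357 at 72 h, had a difference of -0.83 ± 0.14 there, with no test.

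**Figure D4:**
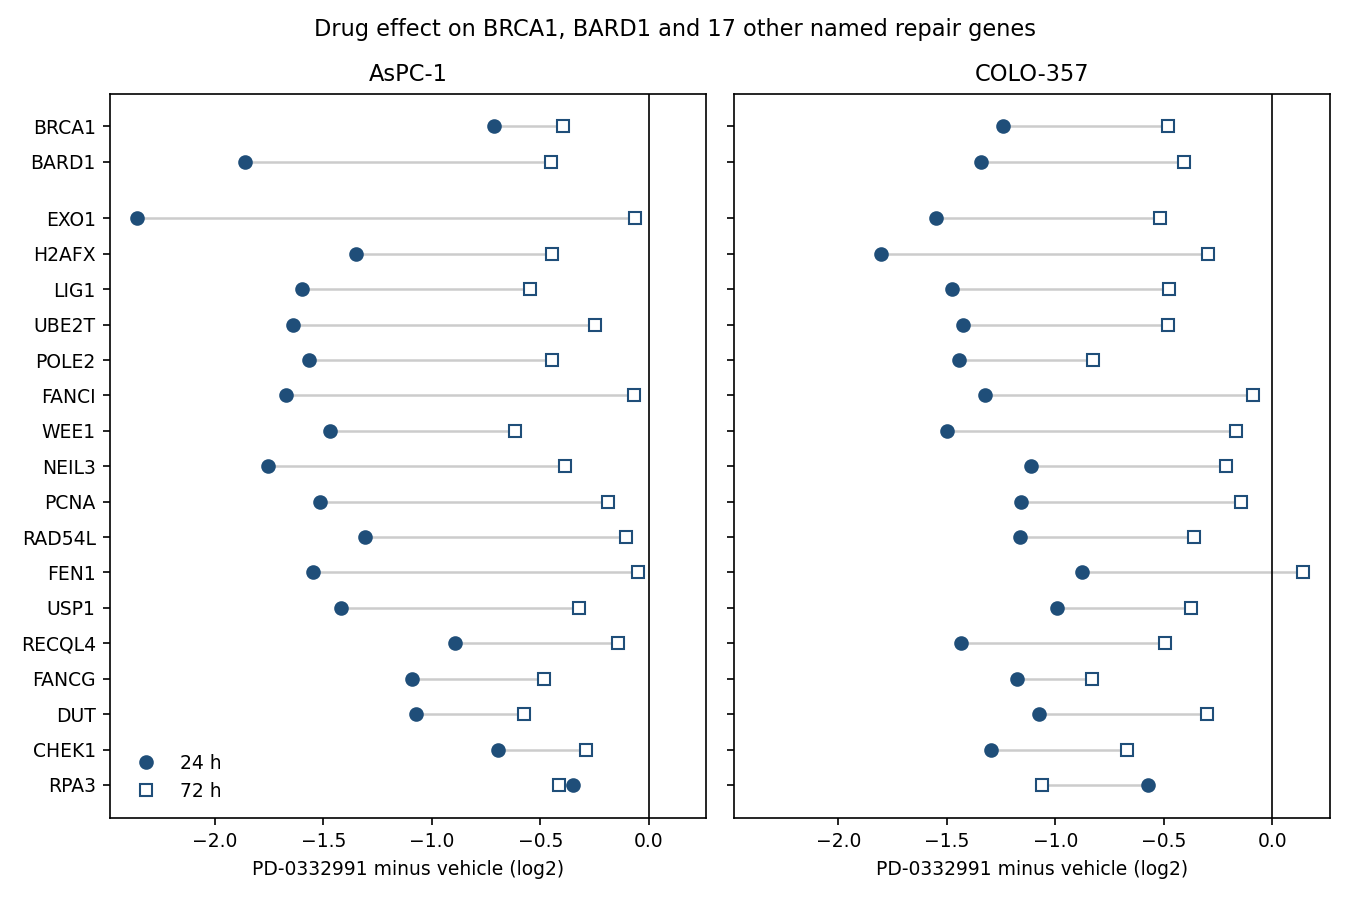
Log2 difference of PD-0332991 minus vehicle (horizontal axis) at 24 h (filled circles) and 72 h (open squares) for BRCA1, BARD1 and 17 of the 18 other repair genes named in the authors' lists, in AsPC-1 (left) and COLO-357 (right). In AsPC-1 at 24 h only EXO1 lies left of BARD1 among the genes drawn, and most lie left of BRCA1.

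Set beside these 18 genes in AsPC-1 at 24 h, 16 of 18 had a lower log2 difference than BRCA1 and 11 of 18 a lower one than the second BRCA1 probe, so the place of BRCA1 depended on the probe. There 1 of 18, EXO1, was lower than BARD1. The authors' list of this comparison held 8 of the 18 and BARD1 but neither BRCA1 probe. The part of the naming in these places was not tested. In COLO-357 at 24 h 10 of 18 were lower than BRCA1, 3 of 18 lower than the second BRCA1 probe and 8 of 18 lower than BARD1. At 72 h 7 of 18 were lower than BRCA1 and 4 of 18 lower than BARD1 in AsPC-1, and 8 and 9 of 18 in COLO-357. The effect at 72 h minus that at 24 h had a median over the 18 genes of 1.11 in AsPC-1 and 0.94 in COLO-357, given with no test because most were named through a 24 h list.

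Of 24 genes of cell cycle entry and the E2F pathway 8 were named. Among them CCNA2 (cyclin A2), CCNE2 (cyclin E2), CDC25A and CDK2 drive S phase entry, and E2F2, E2F7 and FOXM1 are transcription factors. All of these had negative differences at 24 h in both lines, with CCNA2 at -2.57 ± 0.15 in AsPC-1 and -2.20 ± 0.15 in COLO-357. The authors' COLO-357 list at 24 h named all of them, and their AsPC-1 list all but CDK2 and E2F7. Those values therefore have no test. In AsPC-1 at 24 h CDK2 (-1.22 ± 0.13, limma adjusted p = 6.4e-07) and E2F7 (-1.28 ± 0.20, adjusted p = 9.4e-05) fell, where 5.79% of tested probes were called lower. At 72 h CCNA2 fell in AsPC-1 (-0.72 ± 0.15, limma adjusted p = 0.0042), and in COLO-357, where its list names it, its difference was -0.76 ± 0.15, with no test. The other 7 genes had no lower call at 72 h in either line. CCND1 (cyclin D1), the partner of CDK4 and CDK6, rose at 72 h by 0.53 ± 0.13 in AsPC-1 (adjusted p = 0.016) and 0.83 ± 0.13 in COLO-357 (adjusted p = 0.00020). At 24 h its difference was 0.33 ± 0.13 in AsPC-1 (adjusted p = 0.11) and 0.40 ± 0.13 in COLO-357 (adjusted p = 0.049). CCND1 was named through the authors' 2 knockdown lists and CCNA2 through the lists of both lines at 24 h and of COLO-357 at 72 h.

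Likeness was measured as Pearson's r over 24 arrays after each line's own mean was taken off, among the 684 other named probes. The values are a description: the arrays share line, time and treatment, and most named probes were selected for a drug response. BRCA1 was most like its own second probe (r = 0.94), then DUT (0.93), HMGB2, a chromatin protein of dividing cells (0.92), PRIM1, the primase subunit (0.92), and PTTG1, securin (0.92). The second BRCA1 probe was most like DUT (0.96), BRCA1 (0.94), CDC2, the mitotic kinase CDK1 (0.93), FBXO5, an inhibitor of the anaphase-promoting complex (0.93), and CDC45L of the replicative helicase (0.92).

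BARD1 was most like CCNA2 (r = 0.98), KIAA0101, a PCNA-binding protein (0.97), TYMS, thymidylate synthase (0.97), NCAPG, a condensin subunit (0.97), and BUB1, a spindle checkpoint kinase (0.97). BARD1 ranked 55 of 684 in likeness to BRCA1 (r = 0.87), and BRCA1 ranked 170 of 684 in likeness to BARD1. In likeness to the second BRCA1 probe BARD1 ranked 59 (r = 0.89), and that probe ranked 148 in likeness to BARD1. Each partner thus had a higher r with many other named probes than with the other partner. Among all 24750 tested probes, 74 had a higher r with BRCA1 than BARD1 had, and 249 a higher r with BARD1 than BRCA1 had. With the second BRCA1 probe in place of BRCA1 those numbers were 77 and 198.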

How the data were processed

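RNA from 24 cultures in 8 groups was measured on Illumina bead arrays. Per the file headers, the deposited signal table holds 1 linear intensity and 1 detection p-value per probe and array. Each value the authors deposited in the series table equals that intensity times a factor of its array, 0.7136 to 0.8655 on the COLO-357 24 h arrays and 0.9292 to 1.084 on the others. The 6 deposited lists give the authors' mean intensity per group, the ratio of treated over control and a parametric p-value. The software and test behind them are not given in the sources used here.

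Intensities were background-corrected from the detection p-values, quantile-normalised and, after adding 16, logged to base 2 by the neqc function (limma 3.58.1 under R 4.3.3). Tests covered probes whose detection p was below 0.05 on 3 or more arrays. One mean per group was fitted (lmFit and eBayes, 16 residual and 5.84 prior degrees of freedom), with 14 contrasts and two-sided Benjamini-Hochberg adjustment over 24750 probes. The number of arrays limits the precision, and p-values measure the spread between these cultures. Gene names come only from the authors' lists, and the probe with the highest mean log2 level stands for a gene. BRCA1, BARD1, every named member of the 5 gene lists (values for at most 10 a list) and the 5 most alike named probes were reported, except 1 gene whose own values are not reported here. Members and lists were chosen with earlier results of these data known. The procedure was tested on simulated data.

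Same-numbered drug and vehicle arrays deviated together in COLO-357 (r of 0.21, 0.47 and 0.12 at 24 h, 0.15, 0.38 and 0.14 at 72 h). A pairing by number there is read from the data and not from the labels. In AsPC-1 r was 0.01, 0.07 and 0.02 at 24 h and 0.08, 0.12 and 0.03 at 72 h, and no pairing was read. The main fit, with its SE and p-values, did not use the replicate numbers in either line. Only the replicate block, an alternative setting, used them. Alternatives were other scalings and background steps, filters, array weights, a replicate block, a fit of only the groups compared, and leaving out each array. Figures were drawn with matplotlib 3.10.9.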

Additional observations from a re-analysis of the deposited data

How the results depend on the processing

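BRCA1 and BARD1 were refitted over 14 comparisons each. The direction and the side of the threshold were kept in 218 of 252 refits under other settings. With single arrays left out they were kept in 193 of 216. Both counts include comparisons with a 24 h value that named a probe, so they do not measure the stability of the tested comparisons. With the second BRCA1 probe included, all 12 drug effects stayed negative in every one of these refits. Differences that hold a 24 h value through which a probe was named are listed as values only. The alternatives of the second BRCA1 probe were chosen after seeing the data. The causes of the changes below were not tested.

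With only the groups compared, the AsPC-1 24 h effect of BRCA1 (-0.71) and the AsPC-1 72 h effect of BARD1 (-0.45) lost their calls, at the same values, with fewer arrays behind the spread. The BARD1 effect was also not called with 75th percentile scaling (-0.35) and on the authors' scaled intensities (-0.34), and ranged from -0.52 to -0.38 without single arrays. The COLO-357 72 h effect of BRCA1 (-0.48) lost its call with no filter and with only the groups compared, at -0.48, and ranged from -0.62 to -0.39 without single arrays. The COLO-357 72 h effect of BARD1 gained a call with 75th percentile scaling (-0.48), the authors' scaling (-0.60), no background correction (-0.33), an offset of 50 (-0.37), array weights (-0.39), and, at -0.41, with no filter, a detection p under 0.01 and the replicate block. It ranged from -0.50 to -0.35 without single arrays. The second BRCA1 probe gained a call there with 75th percentile scaling (-0.51), the authors' scaling (-0.63) and only the groups compared (-0.51), and lost its AsPC-1 24 h call with only the groups compared. The replicate block changed no other call of the 3 probes.

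The BRCA1 effect in COLO-357, 72 h minus 24 h, was 0.68 with array weights. That of the second probe was 0.95 with array weights and 1.01 with only the groups compared. These are values with no test. BRCA1 in drug-treated COLO-357, 72 h minus 24 h, was 0.36 on the authors' scaled intensities, also with no test. BRCA1 in AsPC-1 vehicle cultures, 72 h minus 24 h, was called with 75th percentile scaling (0.52), the authors' scaling (0.54), no background correction (0.45) and an offset of 50 (0.49), and ranged from 0.44 to 0.70 without single arrays. In COLO-357 vehicle cultures it turned to 0.032 with array weights and ranged from -0.11 to 0.033.

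Differences between the lines, COLO-357 minus AsPC-1, turned sign most often. The BARD1 drug effect at 24 h was -0.034 with the authors' scaling. At 72 h that of BARD1 was -0.13 with 75th percentile scaling and -0.26 with the authors' scaling, and ranged from -0.044 to 0.11 without single arrays, and that of BRCA1 ranged from -0.23 to 0.023. The second BRCA1 probe was 0.13 with array weights at 24 h, and without single arrays lay between -0.52 and 0.10 at that time and between -0.12 and 0.064 at 72 h. In vehicle cultures at 24 h BRCA1 was 0.39 with 75th percentile scaling and 0.67 with the authors' scaling. It was -0.044 with array weights and -0.0087 to 0.25 without single arrays. BARD1 was 0.50 and 0.78 with those scalings. The second BRCA1 probe was 0.17 and 0.45, and -0.31 to 0.32 without single arrays. Arrays of these 24 h groups had named the probes, so the values have no test. In vehicle cultures at 72 h BRCA1 was -0.17 and 0.055 with those scalings, BARD1 0.23 and 0.45, and 0.0040 with array weights, and -0.077 to 0.045 without single arrays; the second BRCA1 probe was 0.051 and 0.27.

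BARD1 minus BRCA1 with the second BRCA1 probe was 0.012 in AsPC-1 at 72 h, 0.17 in COLO-357 at 24 h and -0.046 over both lines and times, where the authors' scaling gave -0.18. With the first BRCA1 probe it ranged without single arrays from -0.24 to 0.091 in COLO-357 at 24 h and from -0.10 to 0.25 at 72 h. Probes called in all numbered 674 against 2900 (AsPC-1 24 h) and 961 against 1499 (AsPC-1 72 h) with only the groups compared, and 4413 against 2796 (COLO-357 24 h) and 4823 against 2791 (COLO-357 72 h) with array weights. The last was 5032 with 75th percentile scaling and 5873 with the authors' scaling. Without single arrays the COLO-357 counts were 1840 to 2197 at 24 h and 1705 to 2998 at 72 h, and the AsPC-1 count at 72 h was 831 to 1317. On the authors' scaled intensities called probes in AsPC-1 at 24 h were 2061 higher and 833 lower, against 1468 and 1432.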
